A study of Mus musculus with 12 samples.

Results

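Potassium channel genes were followed in brain RNA-seq of mice with experimental cerebral malaria (ECM). They were taken as every gene symbol of the deposited count table that starts with Kcn and has a mean of at least 1 CPM over all 12 libraries. CPM are read counts scaled to a common library total. Of 94 Kcn names among 21957 usable gene names, 78 met this rule and 16 did not. The member just inside the limit was Kcnmb1 at a mean of 1.1 CPM, and the name just outside was Kcnq1 at 0.972 CPM. The 78 genes are protein coding, and none sat in a row of the table with displaced values.

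All 3 groups were wild type C57BL/6 mice, 6 weeks old, and all libraries came from brain. The control group was normal mice, the ECM group had ECM, and the treated ECM group had ECM and was given artesunate, an antimalarial drug, for 4 days. There were 4 libraries in each group, here called replicates 1 to 4. The infecting parasite, the dose and the time since infection are not given in the labels, and whether every library had its own mouse is not stated, so p-values measure only the spread between these samples, which may be technical.

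Potassium channels let potassium ions leave cells, which sets the resting potential, ends action potentials and limits repetitive firing. Voltage-gated channels open on depolarization, calcium- and sodium-activated channels open when those ions rise inside the cell, and inward rectifiers and two-pore leak channels conduct near rest. Inward rectifiers of astrocytes also take up potassium that neurons release, and those of vessel walls respond to the energy state of the cell. Auxiliary subunits bind the pore-forming proteins and change their gating or transport.

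Libraries within a group differed from each other, and this touched the potassium channel genes. Reads on genes with values in place ran from 12767654 to 18063035 per library. A score of 11 cerebellum markers (mean log2 level) was 2.61 in control 4, 2.57 in ECM 1 and 2.3 in ECM 3, against 4.38 to 7.63 in the other 9 libraries. Mitochondrial genes took 15.8% of reads in ECM 2, 13.7% in ECM 3 and 11.2% in control 4, against 4.96% to 8.24% elsewhere. Neuron markers did not pass the test in any comparison (0 of 12), while all 7 markers of T and NK cells rose in ECM against control, as did all 6 reactive astrocyte markers. Each library is from bulk tissue, so fewer cells of a type and less RNA per cell cannot be told apart.

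Levels between genes were compared as CPM per kilobase of exon. The highest mean over the 12 libraries belonged to Kcnab2, the beta subunit of Shaker-type channels, at 80.6 CPM per kb. It was followed by Kcnj10, the main inward rectifier of astrocytes, at 57.7 CPM per kb and by the two-pore channel Kcnk1 at 56.8 CPM per kb. Among voltage-gated pore subunits, Kcna2 stood at 30.5, Kcnd2 at 29.4 and Kcnc1, a fast-closing channel of rapidly firing neurons, at 28.2 CPM per kb. The silent modifier Kcnf1 stood at 23.9 CPM per kb, the large-conductance calcium-activated channel Kcnma1 at 17.6, and Kcnh3 of the ether-a-go-go family at 15.1 CPM per kb. At the low end were Kcnmb1, a beta subunit of the Kcnma1 channel, at 0.263 and Kcnh8 at 0.266 CPM per kb. The 5 members described next, whose levels passed a test, were low or middling on this scale, from 1.46 CPM per kb (Kcnk6) to 16.5 CPM per kb (Kcna6).

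**Figure D1:**
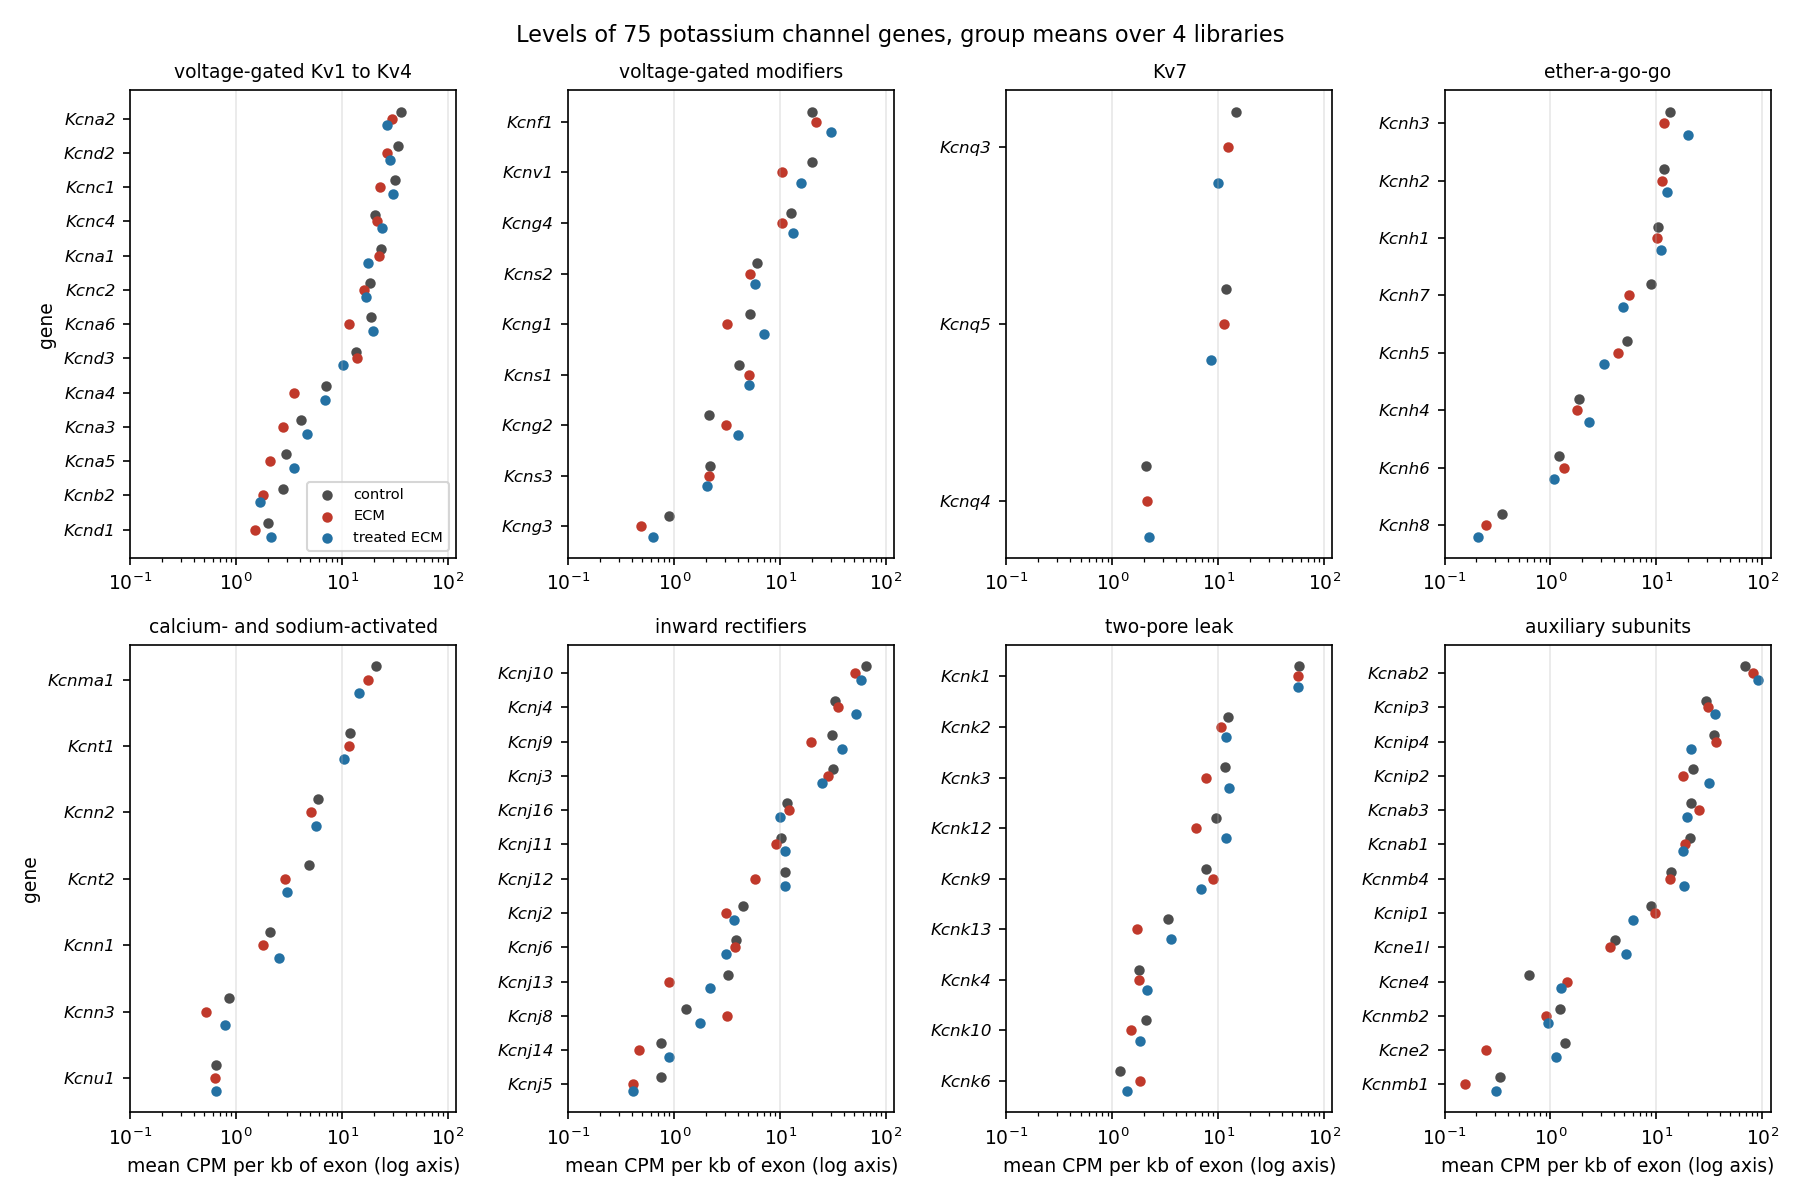
Mean CPM per kilobase of exon (log axis) of 75 of the 78 potassium channel genes in control, ECM and treated ECM brain, 1 panel per class and 1 point per group. Levels span from 0.263 CPM per kb for Kcnmb1 to 80.6 CPM per kb for Kcnab2.

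In ECM against control brain, 2 potassium channel genes were higher (Kcnj8 and Kcnk6) and 3 were lower (Kcna4, Kcna6 and Kcnj13), tested with edgeR's quasi-likelihood test at a Benjamini-Hochberg adjusted p below 0.05. These 5 are 6.41% of the 78, while 10.3% of the 14599 genes tested passed (7.0% higher, 3.26% lower). The median log2 fold change of the 78 was -0.23 and 59 of the 78 were below 0, against a median of -0.02 and 52.5% below 0 over all genes tested. At an unadjusted p below 0.05 there were 13 of the 78, against 22.6% of all genes. For 40 of the 78 the 95% interval of the change stayed within 2-fold in both directions, against 9102 of the 14599 genes tested. Without ECM 2 the median of the 78 was -0.15 with 48 below 0, without control 4, ECM 2 and ECM 3 it was -0.15 with 50 below 0, and without control 4, ECM 1 and ECM 3 it was -0.42 with 63 below 0. With an offset for transcript GC content the median of all genes shifted to 0.15 and that of the 78 to -0.04, with 42 below 0.

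Kcnj8 forms the pore of the ATP-sensitive potassium channel of vascular smooth muscle and pericytes. It measured 3.12, 3.99, 2.59 and 3.36 CPM in control replicates 1 to 4, 5.97, 9.62, 9.29 and 7.16 CPM in ECM, and 5.52, 4.12, 4.44 and 3.9 CPM in treated ECM. Every ECM library was above every control library and above every treated library, and control and treated libraries overlapped between 3.9 and 3.99 CPM. The log2 fold change in ECM against control was 1.29 ± 0.23 (SE, edgeR adjusted p = 0.00235), a 2.45-fold higher level. The call held in 12 of 12 fits that left out 1 library and in 11 of 11 other settings.

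The regulatory partner of Kcnj8 is the sulfonylurea receptor Abcc9, whose gene lies 16247 bases away on the same strand of chromosome 6 (Kcnj8 at 142564837 to 142571614, Abcc9 at 142587862 to 142702315, GENCODE M21, mouse build GRCm38). Abcc9 averaged 11.1 ± 2.13 CPM in control, 16.1 ± 3.86 in ECM and 11.2 ± 0.807 in treated ECM (SD, n = 4). Its log2 fold change in ECM against control was 0.53 ± 0.21, and it did not pass (edgeR adjusted p = 0.135). Libraries ECM 2 and ECM 3 held the highest levels of both genes, at 18.8 and 19.9 CPM for Abcc9. Of 6 pericyte and mural cell markers, 0 passed in this comparison (median log2 fold change -0.09), and their summed level was 250.0 to 272 CPM in control and 190.0 to 269 CPM in ECM. Of 6 endothelial markers, 3 were higher and 2 lower in ECM, and their sum was 201 to 260.0 CPM in control and 310.0 to 365 CPM in ECM. The part of these cells in the Kcnj8 result was not tested.

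**Figure D2:**
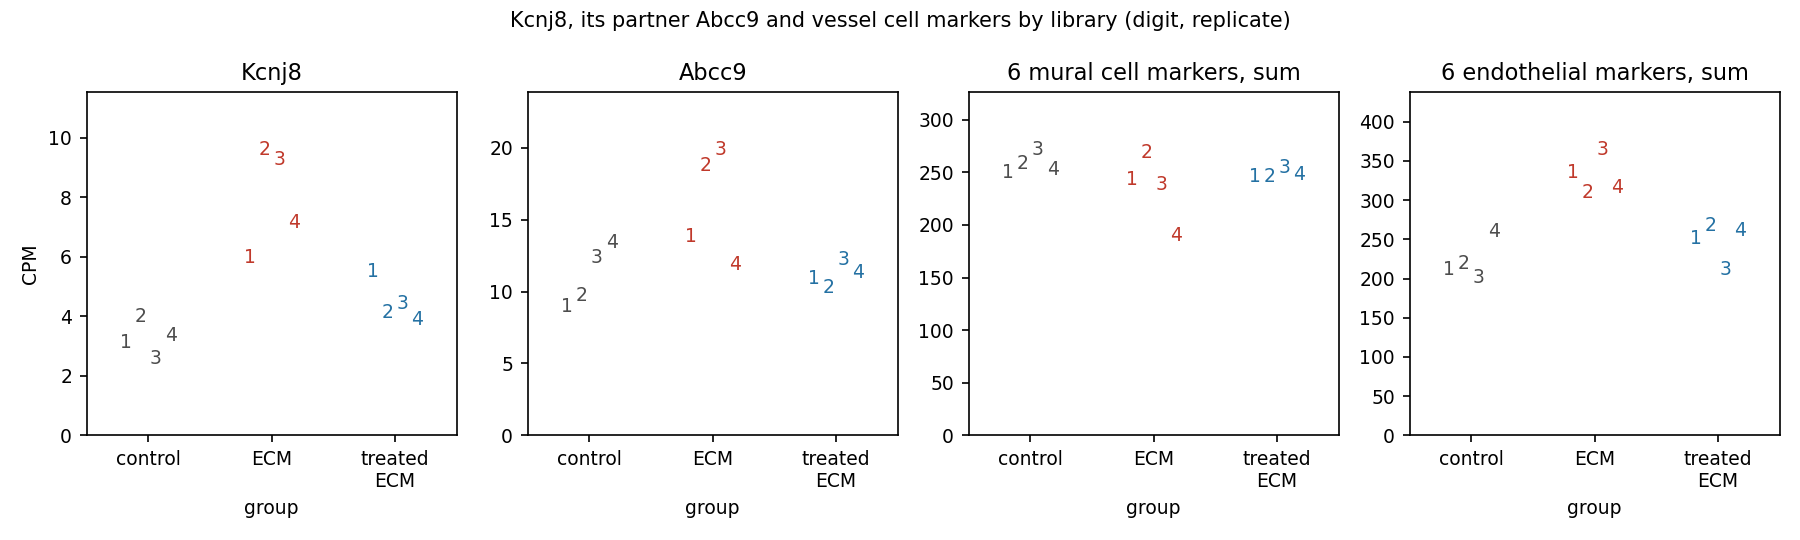
CPM by library of Kcnj8, of its partner Abcc9, and summed CPM of 6 mural cell markers and of 6 endothelial markers in the 3 groups, each digit being the replicate number. Kcnj8 lies between 5.97 and 9.62 CPM in ECM, above all other libraries, while the mural marker sum in ECM (190.0 to 269 CPM) overlaps that of the controls.

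The sequence before the start of Kcnj8 is shown because it was the potassium channel gene with the smallest p-value. The window holds the 250 bases before the RefSeq start (GRCm38.p6, minus strand, chr6:142571615-142571864), and 56 of the 78 members have such a window in the RefSeq table used. Capitals mark a match to a short motif of CREB, a factor that responds to calcium and cyclic AMP.
Kcnj8: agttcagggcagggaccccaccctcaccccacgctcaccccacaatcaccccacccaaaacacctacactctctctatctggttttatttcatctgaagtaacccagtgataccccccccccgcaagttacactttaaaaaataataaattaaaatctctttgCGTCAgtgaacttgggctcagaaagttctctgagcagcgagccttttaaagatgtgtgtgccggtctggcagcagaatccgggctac
The motif searched was TGACG on either strand, and it begins 87 bases before the start here, on the other strand. It occurs in 17.7% of 32817 RefSeq windows of this length. Motifs of the inflammation-responsive factors STAT (TTCNNNGAA) and IRF (the IRF repeat), which can share the letters GAA, were searched on both strands and had 0 matches in this window, against 7.01% and 2.97% of all windows. A match here is a description of letters and not a site in use.

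Kcnk6, a two-pore channel that passes potassium out of macrophages and other cells, was the other gene that was higher in ECM. Control replicates 1 to 4 gave 4.73, 4.77, 5.11 and 4.78 CPM, ECM gave 8.09, 6.23, 7.21 and 8.77 CPM, and treated ECM gave 6.13, 6.15, 5.96 and 4.7 CPM. The ECM libraries stood apart from both other groups, but only just from the treated ones (6.23 against 6.15 CPM). The log2 fold change was 0.64 ± 0.19 (SE, edgeR adjusted p = 0.0439), or 1.56-fold. Among fits without 1 library, the call held only when ECM 2 or ECM 3 was left out. Leaving out any other single library moved the adjusted p to 0.05 or above (highest 0.107). The Kcnk6 call was also lost with no filter on low counts, with only the 2 groups compared and with a replicate block. It was lost too with the GC offset, with block and offset together, and without control 4, ECM 1 and ECM 3. All 5 tested monocyte and macrophage markers were also higher in ECM, with the sum of 6 at 11.5 to 12.1 CPM in control, 118 to 248 CPM in ECM and 40.3 to 74.5 CPM in treated ECM. Their part in the Kcnk6 result was not tested.

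Kcna4 encodes a Shaker-family subunit that gives a fast-inactivating current in axons. It measured 23.7, 27.3, 31.0 and 55.5 CPM in control replicates 1 to 4, 14.8, 11.5, 20.1 and 21.8 CPM in ECM, and 32.9, 34.4, 37.3 and 29.4 CPM in treated ECM. All ECM libraries were below all libraries of both other groups, and control 4 was far above the other controls. The log2 fold change in ECM against control was -1.01 ± 0.27 (SE, edgeR adjusted p = 0.0282), which is 2.02-fold lower. It was -0.67 without control 4 and -0.57 without control 4, ECM 2 and ECM 3. Leaving out control 3, control 4, ECM 1 or ECM 2 ended the call (highest adjusted p 0.0861), and it held without each of the other 8 libraries. The call was also lost with only the 2 groups compared, and with a replicate block and the GC offset together. Leaving out control 4 and ECM 3 together with ECM 1 or with ECM 2 ended it too.

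Kcna6, a Shaker-family subunit with a sustained current, was lower in ECM by a smaller amount. Its levels were 126, 137, 104 and 77.0 CPM in control, 79.4, 48.3, 69.9 and 75.0 CPM in ECM, and 113, 119, 113 and 116 CPM in treated ECM. Control 4 lay inside the ECM range, so these groups overlapped, while all treated libraries were above all ECM libraries. The log2 fold change against control was -0.7 ± 0.19 (SE, edgeR adjusted p = 0.0332). Among fits without 1 library, the call held only without control 4, ECM 1 or ECM 4, with adjusted p-values up to 0.103 in the others. It was also lost with only the 2 groups compared, with a replicate block, with the GC offset, and with block and offset together.

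Markers of the striatum, a forebrain region, moved in the same comparisons as Kcna4 and Kcna6. Of 9, 5 were lower in ECM than in control (median log2 fold change -0.9) and 3 were higher in treated ECM than in ECM (median 0.77). Their sum was 944 to 1471 CPM in control, 357 to 1204 CPM in ECM and 1084 to 1351 CPM in treated ECM, with the lowest value in ECM 3 and the highest ECM value in ECM 2, the ECM library lowest in both genes. Their part in the results for Kcna4 and Kcna6 was not tested.

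The 2 Shaker genes sit on different chromosomes. Kcna6 (126708329 to 126740674) lies 61944 bases from Kcna1 on the minus strand of chromosome 6, in a cluster with Kcna5. Kcna1, the low-threshold channel of axons, did not pass at -0.06 ± 0.26 (edgeR adjusted p = 0.922, 95% interval -0.63 to 0.5), and Kcna5 gave -0.5 ± 0.24 (edgeR adjusted p = 0.239). An annotated antisense transcript covers 39.6% of the exon bases of Kcna6, and no source used here says if the counting used strand. The 250 bases before the RefSeq starts of the Shaker pair are shown because both genes passed in the same 2 comparisons. Kcna4 is at chr2:107290339-107290588 on the plus strand and Kcna6 at chr6:126740675-126740924 on the minus strand (GRCm38.p6), with CREB motifs in capitals.
Kcna4: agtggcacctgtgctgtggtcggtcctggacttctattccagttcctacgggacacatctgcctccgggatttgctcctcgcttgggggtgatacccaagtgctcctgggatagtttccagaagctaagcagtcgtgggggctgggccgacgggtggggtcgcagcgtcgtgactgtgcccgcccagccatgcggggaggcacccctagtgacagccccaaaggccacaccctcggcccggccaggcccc
Kcna6: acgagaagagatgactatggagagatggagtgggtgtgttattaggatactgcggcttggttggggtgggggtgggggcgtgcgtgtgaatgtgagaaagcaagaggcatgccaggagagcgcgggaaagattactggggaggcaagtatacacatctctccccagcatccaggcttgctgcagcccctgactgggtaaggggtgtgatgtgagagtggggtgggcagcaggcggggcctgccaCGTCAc
The Kcna6 window holds 1 CREB motif, which begins 6 bases before the start on the other strand, and the Kcna4 window holds 0. Neither window has a STAT or IRF match. The Kcna4 window is 65.2% G and C, and the Kcna6 window 58.8%.

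Kcnj13 is an inward rectifier of the choroid plexus, the epithelium that makes cerebrospinal fluid. Its levels were 5.85, 1.11, 5.19 and 4.21 CPM in control, 0.786, 1.05, 1.08 and 1.66 CPM in ECM, and 3.53, 1.4, 1.59 and 4.57 CPM in treated ECM. Control 2 fell within the ECM range, and the treated libraries split into 2 low and 2 high ones. The log2 fold change in ECM against control was -1.81 ± 0.52 (SE, edgeR adjusted p = 0.0401). The call was lost without control 1, control 3, control 4, ECM 1, ECM 2, ECM 3 or treated ECM 1 (highest adjusted p 0.112). It was also lost with only the 2 groups compared and with a replicate block. Leaving out control 4 and ECM 3 together with ECM 1 or with ECM 2 ended it too. Kcne2, a beta subunit of the same epithelium, gave the lowest fold change of the 78 at -2.42 ± 0.83, with 2.67, 0.262, 3.59 and 3.07 CPM in control and 0.393, 0.728, 0.0829 and 0.535 CPM in ECM, and did not pass (edgeR adjusted p = 0.0899). In both genes control 2 was the lowest control.

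The summed level of choroid plexus markers was also lowest among the controls in control 2, though single markers such as Otx2 and Clic6 were not. Most of this sum in the controls was Ttr, at 598, 48.4, 565 and 168 CPM in replicates 1 to 4. Of 8 such markers 0 passed in ECM against control (median log2 fold change -1.02), and their sum ran from 72.4 to 647 CPM in control, 20.1 to 407 CPM in ECM and 84.5 to 914 CPM in treated ECM. How much choroid plexus each library held was not tested. Exons of Gigyf2, a widely expressed gene on the opposite strand, cover 49.1% of the exon bases of Kcnj13. Reads that lie within this shared part cannot be told apart without strand. Gigyf2 gave -0.5 ± 0.17 in ECM against control (edgeR adjusted p = 0.0878), with 69.3, 72.3, 70.6 and 91.7 CPM in control and 50.2, 39.0, 70.8 and 54.5 CPM in ECM. Exons of 25 of the 78 members overlap those of another annotated gene, and for 5 of them (Kcnh3, Kcnh7, Kcnip4, Kcnj13 and Kcnk4) that gene is in the count table.

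By class, the 15 voltage-gated pore genes of the Kv1 to Kv4 families had 0 higher and 2 lower in ECM, with 13 of 15 fold changes below 0 and a median of -0.38. Over all genes tested, 7.0% were higher and 3.26% lower, with 52.5% of fold changes below 0 and a median of -0.02. Kcna2, which joins Kcna1 in axon channels, gave -0.28 ± 0.21 and Kcna3 gave -0.57 ± 0.48. Kcnc1 gave -0.48 ± 0.28 and Kcnd2, the main A-type channel of dendrites, -0.36 ± 0.26, none past the threshold (edgeR adjusted p from 0.358 to 0.55 for these 4). Kcna3 was 0.809 CPM in ECM 2 against 5.56 to 8.66 CPM in the other ECM libraries. Of the 9 silent modifiers 0 passed (median -0.24). Their lowest was Kcnv1 at -0.96 ± 0.32 (edgeR adjusted p = 0.0847) and their highest Kcng2 at 0.54 ± 0.37.

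None of the 4 Kv7 genes, 8 ether-a-go-go genes or 7 genes grouped by name as calcium- and sodium-activated passed in ECM against control. Kcnq3, a subunit of the M-current that restrains repetitive firing, gave -0.24 (interval -0.89 to 0.4). Kcnh2 gave -0.06 (-0.81 to 0.69). Kcnma1 gave -0.24 (-0.78 to 0.29) and Kcnn2, a small-conductance channel behind the afterhyperpolarization, -0.23 (-0.56 to 0.1). All 7 genes of the calcium- and sodium-activated class had fold changes below 0, from -0.75 (Kcnt2) to -0.02 (Kcnt1 and Kcnu1). Below 0 were also 59 of the 78 members and 52.5% of all genes tested. Kcnu1 was placed in this class by its name only, and not for opening on calcium or sodium.

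The 13 inward rectifiers had 1 higher (Kcnj8) and 1 lower (Kcnj13) in ECM, with a median of -0.33. That is 15.4% of the 13, against 10.3% of all genes tested. Kcnj10, the astrocyte channel, measured 306, 402, 309 and 373 CPM in control and 311, 212, 355 and 227 CPM in ECM. The groups overlapped and its log2 fold change of -0.33 ± 0.2 did not pass (edgeR adjusted p = 0.355). Its partner Kcnj16 gave 0.08 ± 0.2 and did not pass. Kcnj2, an inward rectifier of neurons and endothelium, had 19.9 to 29.2 CPM in control and 15.1 to 18.3 CPM in ECM without overlap, at -0.53 ± 0.17 (edgeR adjusted p = 0.0633). The G-protein-gated Kcnj9 gave -0.65 ± 0.3 and the cardiac and muscle type Kcnj12 -0.92 ± 0.39, neither past the threshold.

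Of the 9 two-pore leak genes Kcnk6 was the only one called (11.1%, against 10.3% of all genes tested). Kcnk13, the resting potassium channel of microglia, measured 11.7, 15.8, 8.24 and 5.78 CPM in control and 4.48, 6.06, 3.48 and 7.32 CPM in ECM. Control 4 fell inside the ECM range, and the log2 fold change was -0.95 ± 0.31 (edgeR adjusted p = 0.0709). Of 7 microglia markers 1 was higher and 1 lower in ECM, with sums of 312 to 340.0 CPM in control and 258 to 389 CPM in ECM. Kcnk1 gave -0.03 (interval -0.48 to 0.43) and Kcnk2, a mechanically gated leak channel, -0.21 (-0.53 to 0.11), so a 2-fold change lay outside both intervals.

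Among the 13 auxiliary subunits 0 passed and the median was -0.03. Kcnab1 gave -0.18 ± 0.25, the Kv4 partner Kcnip2 -0.31 ± 0.25 and the neuronal Kcnma1 partner Kcnmb4 -0.03 ± 0.26. Kcne4, a subunit that inhibits several voltage-gated channels, had the highest fold change of the class at 1.23 ± 0.57, with 0.779 to 2.44 CPM in control and 0.663 to 7.91 CPM in ECM (edgeR adjusted p = 0.219). Without ECM 4, the library at 7.91 CPM, it was 0.58. Kcnmb1, the smooth muscle beta subunit, gave -1.08 ± 0.4 (edgeR adjusted p = 0.116).

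Treatment was read from treated ECM against ECM, a comparison that shares the 4 ECM libraries with the one above and so cannot count as a separate observation of them. In it, 2 potassium channel genes were higher (Kcna4 and Kcna6) and 1 was lower (Kcnj8). That is 3.85% of the 78, against 8.34% of all genes tested (3.3% higher, 5.03% lower). The median log2 fold change of the 78 was 0.17, against 0.01 over all genes, with 27 of 78 below 0. At an unadjusted p below 0.05 there were 16 of the 78, against 25.9% of all genes. Without ECM 2 the median was 0.06 and 36 were below 0, without control 4, ECM 2 and ECM 3 it was 0.01 with 38 below 0, and without control 4, ECM 1 and ECM 3 it was 0.3 with 21 below 0. With the GC offset the median of all genes moved to -0.23 and that of the 78 to -0.11 with 50 below 0.

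Kcna4 was higher in treated ECM than in ECM by 0.98 ± 0.27 on the log2 scale (edgeR adjusted p = 0.0408), and Kcna6 by 0.76 ± 0.19 (edgeR adjusted p = 0.0294). Kcnj8 was lower by 0.83, with a log2 fold change of -0.83 ± 0.23 (edgeR adjusted p = 0.0407). Leaving out any 1 of the 4 treated libraries, or ECM 2 or ECM 3, ended the Kcna6 and Kcnj8 calls, and Kcnj8 was also lost without control 1 or control 3. The Kcna4 call ended without any 1 of the 4 treated libraries, control 3, ECM 1, ECM 2 or ECM 3. Adjusted p-values in these fits reached 0.107, 0.0831 and 0.12 for Kcna4, Kcna6 and Kcnj8. The 3 genes kept their direction in each of these fits. With the GC offset the Kcna6 value was 0.41, and 0.43 with the replicate block added, and the call was lost in both, as it was with the replicate block alone (0.76). The Kcnj8 value was -1.26 with the GC offset, where the call held, and -0.55 without control 4, ECM 2 and ECM 3, where it was lost.

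Several members came close in treated ECM against ECM without passing. Kcnk13 measured 13.0, 11.3, 9.27 and 11.1 CPM in treated ECM, above all ECM libraries, at 1.06 ± 0.31 (edgeR adjusted p = 0.0514). Kcnip2, which speeds the A-type current of Kv4 channels, gave 0.82 ± 0.25 (edgeR adjusted p = 0.0635), Kcnj9 0.96 ± 0.3 (0.0682), Kcng1 1.15 ± 0.37 (0.0719) and Kcna5 0.75 ± 0.24 (0.0723). Kcne2 had the highest fold change at 2.16 ± 0.83 and Kcnj13 gave 1.26 ± 0.52, both not past the threshold (edgeR adjusted p = 0.124 and 0.145). Kcnk6 gave -0.4 ± 0.19 (edgeR adjusted p = 0.191). On the lower side were Kcnip4 at -0.79 ± 0.32, Kcnip1 at -0.68 ± 0.3, Kcnd3 at -0.44 ± 0.17 and Kcnh5 at -0.44 ± 0.43. Libraries did not overlap between the groups for 9 of the 78, against 22.0% of all genes, and for 5 of the 78 in ECM against control, against 14.3%.

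In treated ECM against control, 0 of the 78 passed with edgeR and 0 with DESeq2, where 2.04% of all genes passed with edgeR (1.99% higher, 0.0548% lower). At an unadjusted edgeR p below 0.05 there were 3 (Kcnd3, Kcng2 and Kcnip4), against 11.4% of all genes. The median log2 fold change was -0.06, and 5 of 78 had libraries without overlap, against 19.1% of all genes. Kcnj8 gave 0.46 (interval -0.04 to 0.96), Kcnk6 0.24 (-0.16 to 0.65), Kcna4 -0.04 (-0.61 to 0.53), Kcna6 0.06 (-0.35 to 0.47) and Kcnj13 -0.56 (-1.6 to 0.49). For Kcna4, Kcna6, Kcnj8 and Kcnk6 these intervals lie within 2-fold, and for Kcnj13 the interval does not. The sign for Kcna4 and for Kcna6 turned in some settings. The most positive fold changes were Kcne4 at 1.04 ± 0.57 and Kcng2 at 0.89 ± 0.37, and the most negative Kcnj5 and Kcnh7 at -0.88, with SEs of 0.51 and 0.43.

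**Figure D3:**
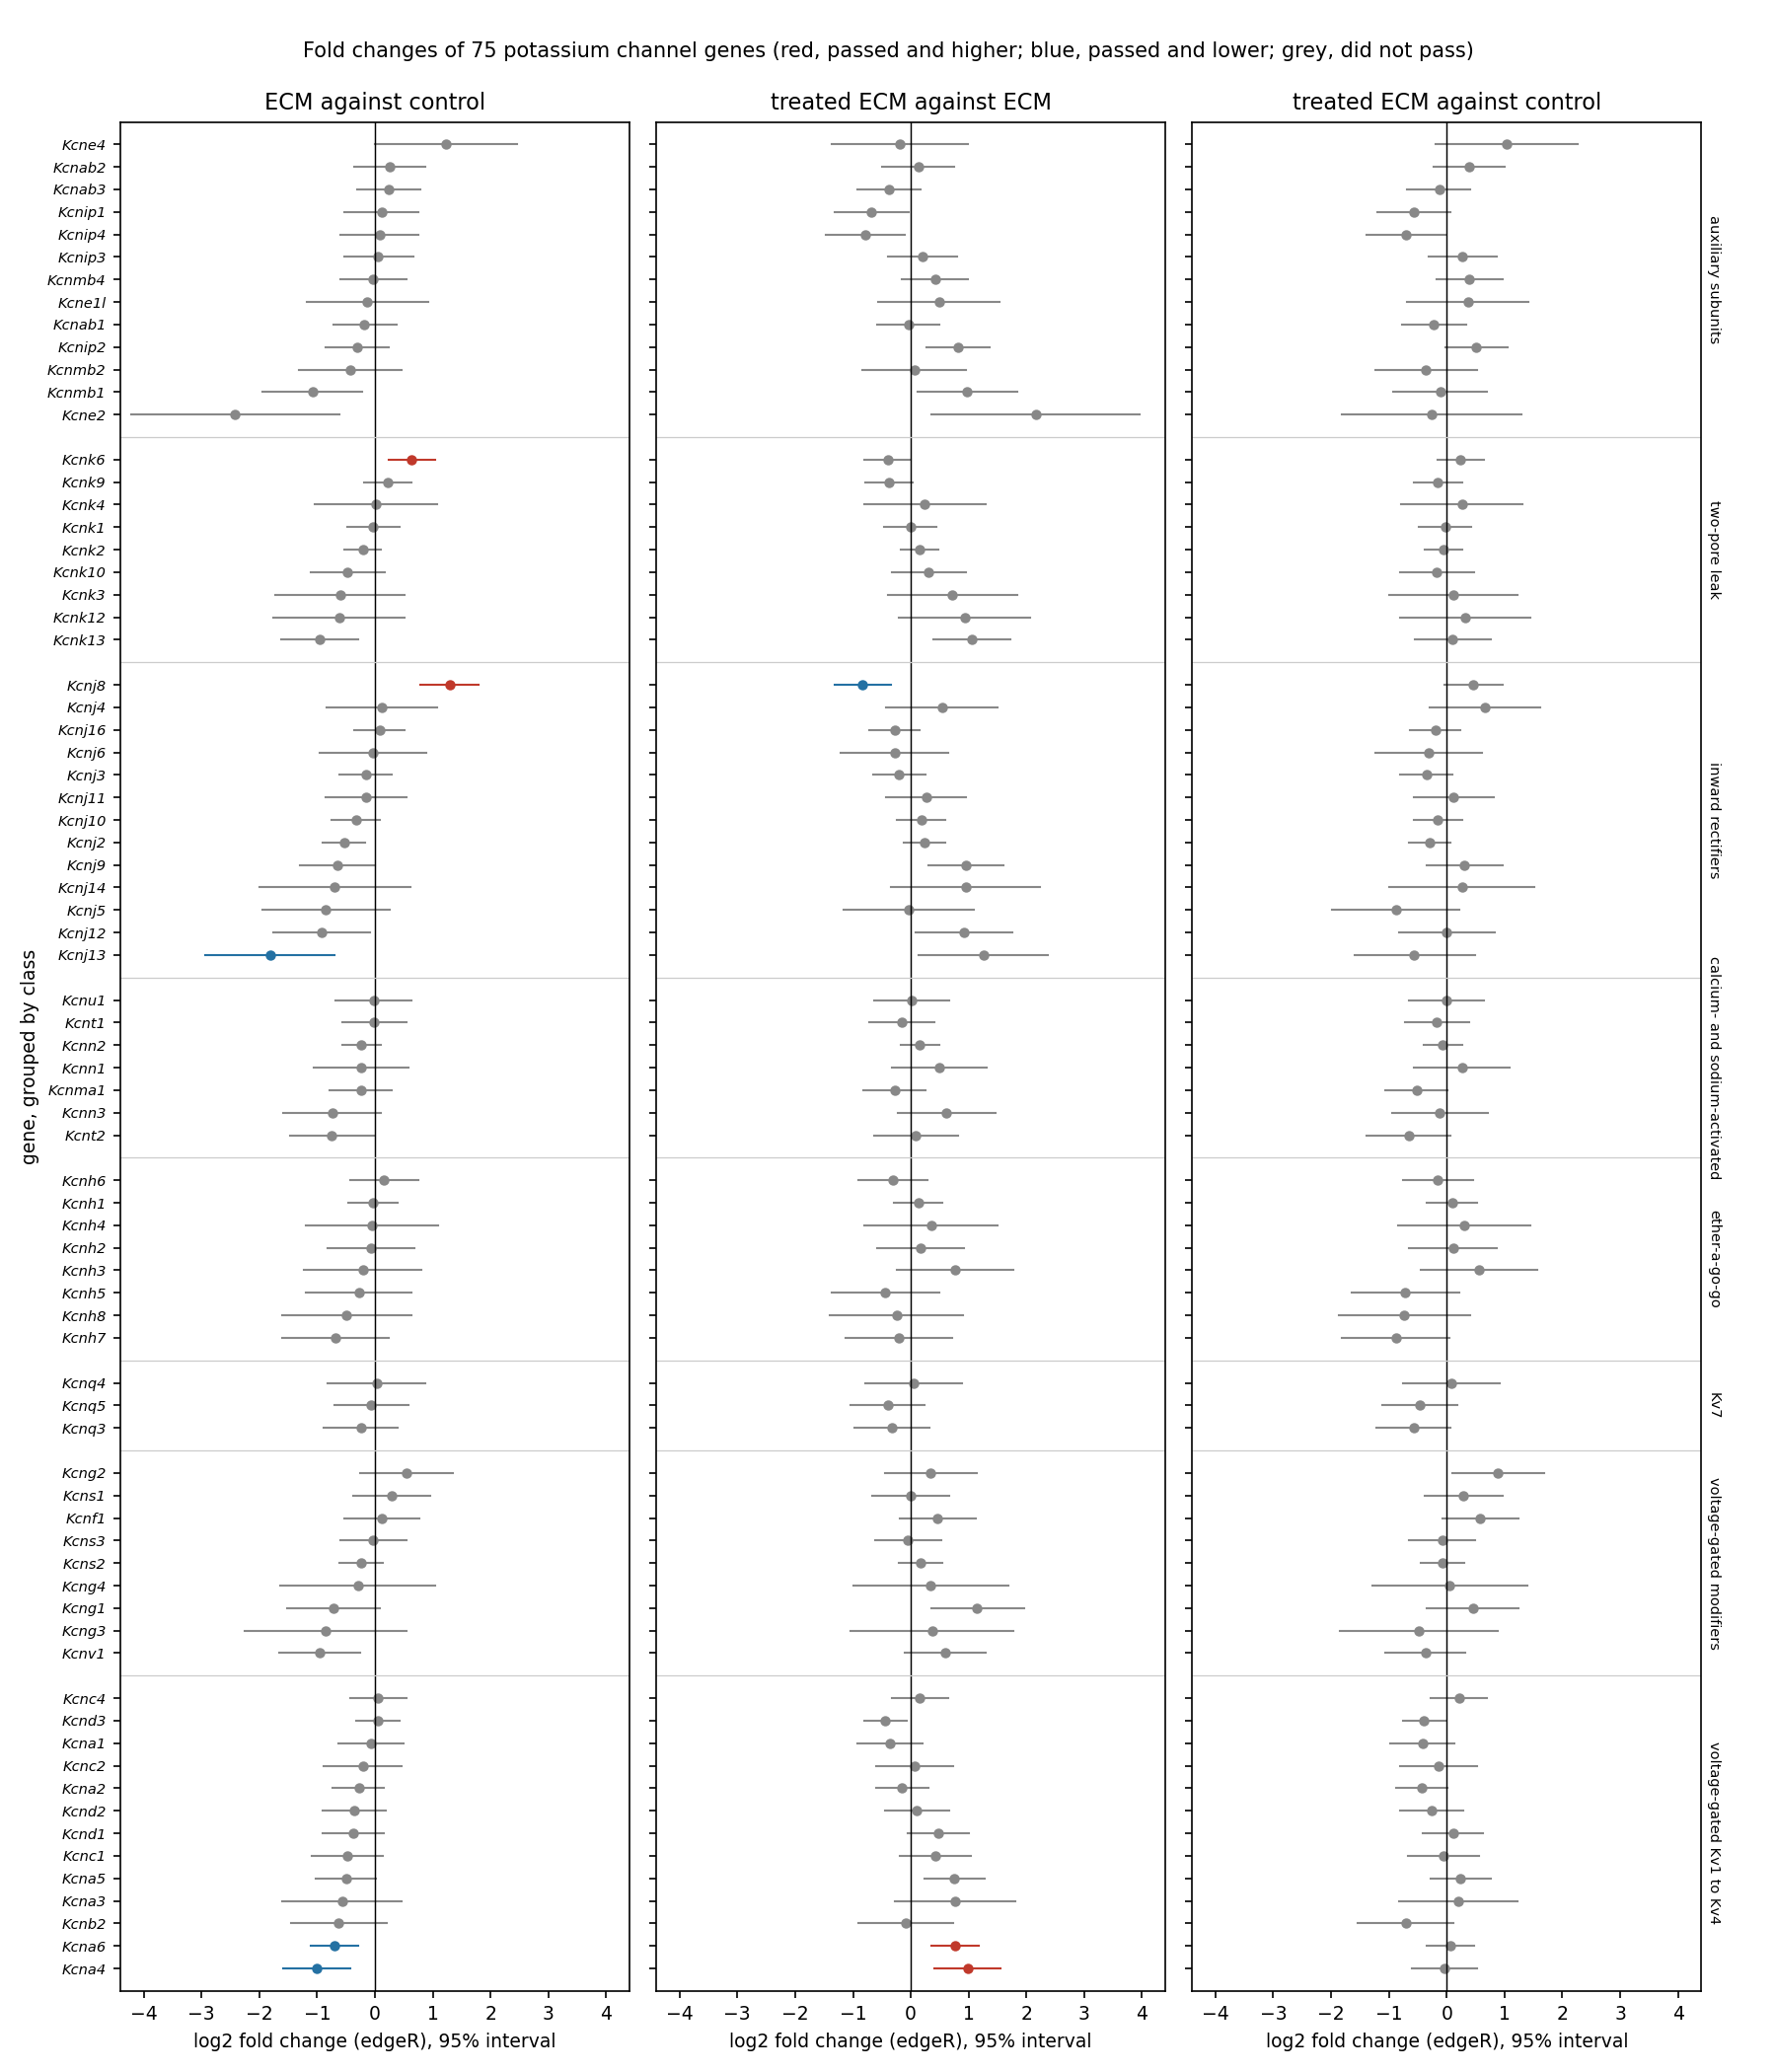
Log2 fold change with its 95% interval (edgeR) of 75 of the 78 potassium channel genes, grouped by class, in the 3 comparisons. Coloured points passed at an adjusted p below 0.05: 2 higher and 3 lower in ECM against control, 2 higher and 1 lower in treated ECM against ECM, and 0 in treated ECM against control.

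The spread of the potassium channel genes between libraries of 1 group was wide. The median range over the 4 libraries, on the scale log2(CPM + 0.5), was 1.07 in control, 1.27 in ECM and 0.54 in treated ECM, against 0.7, 0.89 and 0.32 over all genes tested. In control 4, 17 members were more than 2-fold below the mean of the other controls and 6 more than 2-fold above it. The share of all genes beyond 2-fold was not computed. Control 4 was the lowest control for 47.4% of the 78 and 41.5% of the 13773 tested genes with values in all 12 libraries. It was the highest control for 33.3% of the 78 and 41.6% of those genes. Among the members furthest below the other controls were Kcnk3 (-2.74), Kcng4 (-2.53) and Kcnk12 (-2.5), and those furthest above were Kcnh7 (1.47) and Kcnb2 (1.44). Kcnk3, for example, measured 52.1, 67.1, 56.4 and 8.28 CPM in control replicates 1 to 4.

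Library differences were also set against the GC content of the transcripts. Across the 78 genes, the difference of control 4 from the other controls had a Spearman rank correlation of -0.802 with transcript GC content, and over 13742 genes it was -0.688. In ECM 4 the values were 0.709 and 0.715, and in the 4 treated libraries they lay between -0.174 and 0.182 for the 78. These are descriptions over genes of the same libraries. Kcnb2 and Kcnh7 have 39.3% and 39.6% GC, and Kcnk12 has 69.4%. Kcnk3, Kcng4 and Kcnk12 were more than 2-fold lower, and Kcnb2 and Kcnh7 more than 2-fold higher, both in control 4 against the other controls and in ECM 1 and 3 against ECM 2 and 4. The cerebellum score and the GC correlation did not always go together: ECM 1, with a low score, had a correlation of 0.272 over the 78 (0.382 over all), ECM 3, also low, had -0.5 (-0.467), and ECM 2, with the highest score, had -0.132 (-0.321). Their parts in the spread were not tested.

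ECM 2 was the lowest ECM library for 45 of the 78 genes (57.7%), against 31.1% of the 13773 tested genes with values in all 12 libraries. Kcna1 measured 45.8 CPM there against 121 to 136 CPM in the other ECM libraries, and Kcnj6 6.06 against 25.7 to 50.4 CPM. ECM 2 was the highest ECM library for 12 of the 78 (15.4%), against 32.7% of those 13773 genes. Among these 12 were Kcnab1 at 278 CPM against 113 to 127 CPM, and Kcnk1 at 198 CPM against 97.9 to 108 CPM. Treated ECM 4 was the lowest treated library for 35 of the 78 (44.9%), against 25.8% of those genes.

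**Figure D4:**
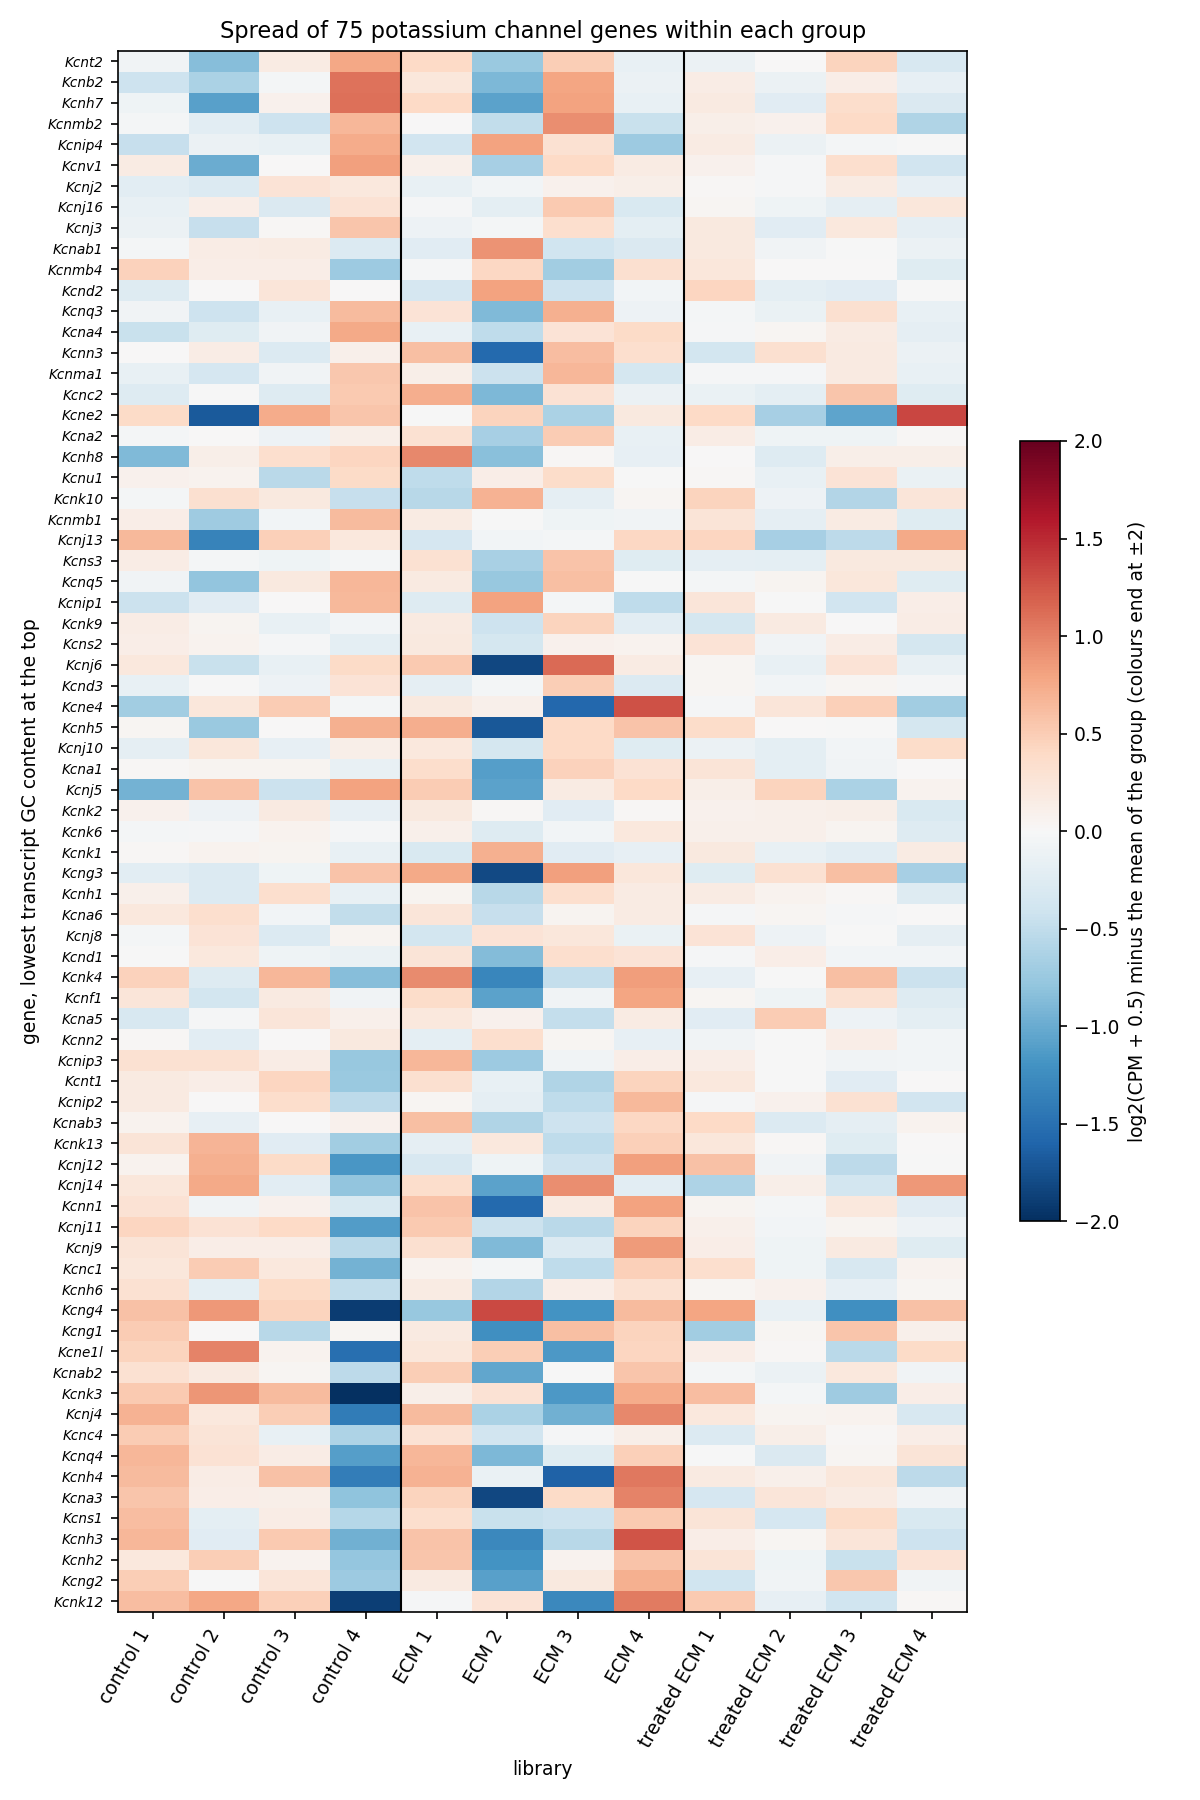
The same 75 of the 78 potassium channel genes (rows, from the lowest to the highest transcript GC content) in each of the 12 libraries, coloured by log2(CPM + 0.5) minus the mean of its own group. Control 4 is above its group for low-GC genes such as Kcnb2 and Kcnh7 and below it for high-GC genes such as Kcnk12, ECM 2 is below its group in most rows, and treated ECM libraries are the palest.

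With the cerebellum score as a covariate, 2 members were higher and 13 lower in ECM against control, where 19.4% of all genes passed (10.7% higher, 8.66% lower). The 13 were Kcna4, Kcna6, Kcnb2, Kcnc2, Kcnh7, Kcnj13, Kcnj2, Kcnk13, Kcnma1, Kcnmb1, Kcnq3, Kcnt2 and Kcnv1. For treated ECM against ECM this fit gave 5 higher (Kcna4, Kcna6, Kcng1, Kcnk13 and Kcnv1) and 1 lower (Kcnj8), where 12.3% of all genes passed (5.25% higher, 7.08% lower). It gave 0 in treated ECM against control, where 2.75% of all genes passed (2.61% higher, 0.144% lower).

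DESeq2 called the same 5 genes in ECM against control, and in addition Kcne2, Kcnj2, Kcnk13 and Kcnv1 as lower, where 12.7% of all genes passed (8.59% higher, 4.11% lower). It called, in treated ECM against ECM, 8 higher (Kcna4, Kcna5, Kcna6, Kcne2, Kcng1, Kcnip2, Kcnj9 and Kcnk13) and 1 lower (Kcnj8), where 13.4% of all genes passed (4.99% higher, 8.4% lower). With DESeq2, 2.71% of all genes passed in treated ECM against control (2.57% higher, 0.138% lower).

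Leaving out control 4, ECM 1 and ECM 3, which had the lowest cerebellum scores, gave Kcnj8 higher and Kcna2 and Kcna6 lower in ECM against control, where 14.5% of all genes passed (9.55% higher, 4.96% lower). The same setting gave, in treated ECM against ECM, Kcna4 and Kcna6 higher and Kcnj8 lower, where 12.2% passed (4.67% higher, 7.53% lower), and in treated ECM against control 0, where 2.0% passed (1.94% higher, 0.054% lower). Leaving out control 4, ECM 2 and ECM 3, which had the highest mitochondrial shares, gave 5 higher (Kcnab2, Kcnab3, Kcne4, Kcnj8 and Kcnk6) and 4 lower (Kcna6, Kcnab1, Kcnk13 and Kcnn2) in ECM against control, where 18.7% passed (10.1% higher, 8.55% lower). That setting gave, in treated ECM against ECM, Kcna4, Kcna6 and Kcnn2 higher and Kcna1, Kcnab3, Kcnh5 and Kcnt1 lower, where 15.3% passed (7.24% higher, 8.04% lower). It gave, in treated ECM against control, Kcna1 and Kcnd3 lower, where 3.16% passed (2.8% higher, 0.351% lower). Kcnj8 was higher and Kcna6 lower in ECM against control in the covariate fit and in both of these reduced sets.

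Genes beside the potassium channels were read from lists with the same test. Of 33 sodium and calcium channel genes 1 was higher and 2 lower in ECM (median -0.32). That is 9.09%, against 10.3% of all genes. They were Scn10a (3.42 ± 0.6), the calcium channel subunit Cacng4 (-0.65 ± 0.14) and the sodium channel subunit Scn2b (-0.77 ± 0.18). In treated ECM against ECM 2 of the 33 were higher and 1 lower (9.09%, against 8.34% of all genes). Fold changes of the 33 there ran from -3.38 to 0.85. Of the 4 hyperpolarization-activated HCN channels, Hcn3 was lower (-0.89 ± 0.24), and in treated ECM against ECM Hcn3 and Hcn4 were higher (0.91 ± 0.24 and 1.28 ± 0.32). Among 14 tested partners of potassium channels with other names, Lrrc55, an auxiliary subunit of the Kcnma1 channel, was lower in ECM (-1.4 ± 0.36, edgeR adjusted p = 0.025). Lrrc55 was highest in control 4, at 60 CPM, against 18.8 to 29.1 CPM in the other controls and 7.12 to 14.8 CPM in ECM, and the call was lost without control 3, control 4 or ECM 2 (highest adjusted p 0.065). The Hcn3 call in ECM against control was lost without control 1, control 2, control 3, ECM 2 or ECM 3 (highest adjusted p 0.0861). In treated ECM against ECM 0 of the 14 partners passed, with 3 at an unadjusted edgeR p below 0.05.

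Of the 16 Kcn names under 1 CPM, 4 entered the test. Kcnq1, the Kv7 channel of epithelia, measured 0.612, 0.588, 0.534 and 0.286 CPM in control, 1.57, 1.46, 2.4 and 1.07 CPM in ECM, and 0.828, 1.12, 0.397 and 0.794 CPM in treated ECM. It was higher in ECM than in control without overlap (log2 fold change 1.65 ± 0.4, edgeR adjusted p = 0.0183), and the call was lost without control 3 (adjusted p 0.05). Kcnn4, the calcium-activated channel of T cells and other blood cells, gave 1.37 ± 0.49 (edgeR adjusted p = 0.105). Kcne3, a partner of Kcnq1 in epithelia, had 0 reads in the 4 control libraries, 21 in ECM and 10 in treated ECM. Against a floor of 3 counts over the control group (0.0497 CPM), the ECM level of 0.376 CPM was 7.56-fold higher. The floor covers counting error in the control group only, not that of the ECM reads, and edgeR did not test Kcne3. Kcne1 had 0 reads in all 12 libraries, below the same floor.

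The authors' deposited tables of their own comparisons list 9 Kcn entries for ECM against control. They give adjusted p-values of 0.000267 for Kcnj8, 0.00748 for Kcnj13, 0.00796 for Kcne3, 0.0147 for Kcne2, 0.0195 for Kcnq1 and 0.0371 for Kcna4. Kcnn4 (0.215), Kcne4 (0.254) and Kcnmb1 (0.282) are listed too, because the authors' unadjusted p-values there end at 0.05. For treated ECM against ECM the authors' deposited table gives Kcnk13 at 1.04 (adjusted p 0.00234), Kcng1 at 1.14 (0.0262) and Kcne2 at 2.17 (0.0324). That table holds 7 Kcn names. The authors' deposited table for treated ECM against control lists Kcne4 at 1.04 (adjusted p 0.132). The smallest absolute log2 fold change in each of the authors' deposited tables is 1.0, so smaller changes are not listed there whatever their p-value. Kcna4, Kcna6 and Kcnj8, with absolute log2 fold changes under 1 in the edgeR fit above, are not among the 7.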

How the data were processed

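RNA was extracted from brains kept in RNAlater with Trizol, and the library kit was NEBNext Ultra RNA (both per the labels' protocols). Trimmomatic, FastQC, STAR, HTSeq and the mouse build mm10 are named in the submitters' processing notes, and no source used here gives versions, annotation or strand setting. Raw read counts per gene are what the deposited table holds. In 2212 of its 21983 rows the authors' file breaks a gene name of 8 or more characters over 2 cells, so the columns treated ECM 1 and ECM 4 there hold other content than counts; these rows were put back in place without treated ECM 4, and 0 of them was a Kcn gene. Another 26 rows bear dates in place of names and were left out. The authors' deposited comparison tables give log2 fold changes, p-values, normalised signal, read counts and FPKM. The fold changes, p-values and adjusted p-values were used, and the read counts served to check the rows put back in place. In those rows treated ECM 4 differed for 32 of 33 genes (treated ECM against control) and 77 of 85 (treated ECM against ECM). No value of another library differed.

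Genes with enough counts were tested in 1 edgeR (4.0.16) quasi-likelihood fit over the 12 libraries, with TMM scaling and Benjamini-Hochberg adjustment over the 14599 genes tested. All 78 potassium channel genes passed the filter on low counts. Exon lengths, positions and overlaps came from GENCODE M21, which matched 21871 of 21957 names. Fold changes in the text are log2 differences with their SE or 95% interval, and CPM are scaled by TMM. Alternatives were other scalings, DESeq2 (1.42.0), no filter, fits of 2 groups, a replicate block, a cerebellum score, a GC offset, and leaving out libraries. The setting without control 4, ECM 1 and ECM 3 was chosen after seeing the data. The named genes were those that passed, a panel of well-known channels, the highest per kilobase in each class and the 5 highest and 5 lowest fold changes of each comparison; others, among them Kcnq1, Kcne3, Abcc9, Gigyf2 and the genes described within single libraries, were named after their values were seen. The potassium channel genes, lists and tests were chosen with earlier results of these data known. The fit was tested on simulated data. No libraries agreed within sampling noise (chi-square per degree of freedom at least 9.06). Results of some genes are not reported here, and 75 of the 78 are drawn in the plots of all members.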

Additional observations from a re-analysis of the deposited data

Results flagged for a closer look

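In 15 sets of 4 libraries (the 5 potassium channel genes that passed, in 3 groups), 1 library stood far from the other 3 for 2 sets, both of Kcnk6. Kcnk6 was at 5.11 CPM in control 3, above the other controls at 4.73 to 4.78 CPM, and at 4.7 CPM in treated ECM 4, below the other treated libraries at 5.96 to 6.15 CPM. Chance flags about 1 in 20 such sets.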

How the results depend on the processing

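The counts of potassium channel genes that passed moved with the setting, and the cause was not tested. In ECM against control, the number higher (2) was 1 with no filter on low counts, with only the 2 groups and with the GC offset. It was also 1 at an adjusted p below 0.01 and without control 4, ECM 1 and ECM 3, and 5 without control 4, ECM 2 and ECM 3. The share higher over all genes (7.0%) was 5.71% with no filter, 4.98% with only the 2 groups and 8.14% with the GC offset. It was 9.55% without control 4, ECM 1 and ECM 3 and 10.1% without control 4, ECM 2 and ECM 3. No share over all genes was computed at 0.01. The number lower (3) was 7 with DESeq2, 13 with the cerebellum score, and 0 with only the 2 groups or at 0.01. The share lower over all genes (3.26%) was 4.11% with DESeq2, 8.66% with the cerebellum score and 1.08% with only the 2 groups. In treated ECM against ECM, the number higher (2) was 8 with DESeq2, 5 with the cerebellum score, 1 with the GC offset and 0 at 0.01. The share higher over all genes (3.3%) was 4.99% with DESeq2, 5.25% with the cerebellum score and 1.14% with the GC offset. The number lower (1) was 0 with no filter, only the 2 groups or 0.01, and 4 without control 4, ECM 2 and ECM 3. The share lower over all genes (5.03%) was 3.81% with no filter and 4.47% with only the 2 groups. It was 8.04% without control 4, ECM 2 and ECM 3. In treated ECM against control, 2 were lower (Kcna1 and Kcnd3) without control 4, ECM 2 and ECM 3, where 0.351% of all genes were lower. Leaving out 1 library gave 1 to 3 higher and 0 to 6 lower in ECM against control (6 without control 2, 0 without control 3). Over all genes, 5.44% to 7.68% were higher and 1.78% to 3.97% lower (2.34% without control 2, 1.78% without control 3). It gave 0 to 6 higher and 0 to 2 lower in treated ECM against ECM (6 and 2 without ECM 4). Over all genes, 1.25% to 5.81% were higher and 2.47% to 8.35% lower there (5.56% and 7.84% without ECM 4). In treated ECM against control it gave 0 to 0, with 1.5% to 2.13% of all genes higher and 0.0136% to 0.0885% lower.

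Replicate numbers 1 to 4 recur in the 3 groups, and the labels give no block. Libraries with the same number had correlations of their deviations from -0.654 to 0.314. Those with different numbers had -0.546 to 0.725. Such correlations over all genes cannot show if libraries of the same number shared a preparation. With a replicate block, ECM against control gave 1 higher and 1 lower, where 5.32% of all genes were higher and 1.53% lower. Treated ECM against ECM gave 1 higher and 0 lower, where 1.19% of all genes were higher and 2.5% lower. With the replicate block and the GC offset, ECM against control gave 1 higher and 1 lower (7.06% and 0.897% of all genes). Treated ECM against ECM then gave 1 higher and 1 lower (0.849% and 5.3% of all genes).

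In treated ECM against control the fold change of Kcna4 (-0.04) was 0.05 with the replicate block, 0.05 with the cerebellum score, 0.1 with the GC offset and 0.15 with both block and offset. It was 0.29 without control 4, ECM 2 and ECM 3, 0.3 without control 4, ECM 1 and ECM 3, 0.3 without control 4 and 0.02 without treated ECM 4. That of Kcna6 (0.06) was -0.12 with the GC offset, -0.11 with both block and offset, -0.09 without control 4, ECM 2 and ECM 3, -0.08 without control 4, ECM 1 and ECM 3, and -0.08 without control 4. Over the fits without 1 library, Kcna4 ran from -0.18 to 0.3 and Kcna6 from -0.08 to 0.17. Of the other single-gene values, 763 kept their direction and side of the threshold, 77 no longer passed and 20 newly passed. With 4 libraries a group and a wide spread in control and ECM, changes under 2-fold were not bounded for many genes.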
